A study of Mus musculus with 24 samples.

Results

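The PYHIN genes of mouse, also called the Ifi200 family, lie side by side on chromosome 1. The 7 genes Ifi203, Ifi204, Ifi207, Ifi209, Ifi211, Mndal and Aim2 were taken by symbol from the 47937 genes of a count table of mouse embryonic fibroblasts (MEF cells, a connective tissue culture), and all 7 were found. They were followed over 24 RNA-seq libraries of 8 conditions in which histone H3 lysine 9 (H3K9) methyltransferase genes were removed step by step.

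PYHIN proteins carry a pyrin domain, which assembles signalling complexes, and most carry a HIN domain, which binds DNA. Aim2 senses DNA in the cytosol and builds an inflammasome with the adaptor Pycard and the protease Casp1, and Ifi204 is the mouse gene most often compared with the human DNA sensor IFI16. Genes of the family are known to be induced by interferon, and H3K9 methylation is a mark of silent chromatin.

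All cells carried a floxed Eset1 gene (Setdb1) and a Cre recombinase that is activated by 4-hydroxytamoxifen (4-OHT), which deletes the floxed exons of Eset1. WT denotes the parental clone E25 without 4-OHT, and E1 is the same clone after 4-OHT, lacking Eset1. In series 1, E1 S1S2 (clone B1) lacked Eset1, Suv39h1 and Suv39h2, and 6KO1 (clone B1A6, derived from B1) lacked also Eset2 (Setdb2), G9a (Ehmt2) and Glp (Ehmt1). In series 2, E2 was the Eset2-mutant clone A4 without 4-OHT, and E1E2 was clone A4 after 4-OHT. From it came E1E2 G9Gl, which lacked also G9a and Glp, and then 6KO2 (clone E2F4), which lacked also Suv39h1 and Suv39h2. All genes other than Eset1 were disrupted by CRISPR/Cas9 frameshifts, and each mutant line was 1 clone, so a mutation and its clone cannot be told apart. After these disruptions, by the study's methods, a Cre construct with puromycin resistance was put in again and the lines were kept in puromycin. Whether the parental clone was treated likewise is not stated. Each condition had 3 libraries, which the study describes as biological replicates. GEO's treatment field names 4-OHT for every sample, and its use was read from the sample titles and the study's methods.

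The libraries held 24736829 to 37419071 counts, of which 19541909 to 31489070 fell on genes. Setdb1 lay between 25.9 and 50.1 CPM (counts scaled to the normalized gene total of the library) in the 18 libraries with the deletion and between 40.2 and 63.7 in the 6 others, and counts over a whole gene do not show a frameshift or the loss of single exons. The 10 fibroblast markers examined summed to 3228 to 8599 CPM over all libraries, mostly from the collagens, Vim and Fbn1. Each had a count in every condition, but over the 3 libraries of 6KO1 Thy1 had 1 count and Dcn 2, and Thy1 had 3 in E1 S1S2 and 5 in 6KO2. Dcn had 5 counts in E1E2 G9Gl, against 111 in WT. Pdgfra had 35 counts in E1E2 G9Gl and 10 in 6KO1, against 390 in WT. Replicate 2 of E2 and replicate 2 of 6KO2 stood below the other libraries of their conditions in Irf7, an interferon-induced transcription factor, at 1.49 against 5.55 and 6.01 CPM and at 6.59 against 12 and 13.2 CPM.

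On GRCm38 the 7 members lie between chr1:173350879, the start of Aim2, and chr1:173942672, the end of Ifi203, with Ifi206, Ifi208, Ifi213 and Ifi214 among them and Ifi202b and Ifi205 beyond Ifi203. Aim2 (chr1:173350879-173466040) and Ifi209 (chr1:173630917-173647928) are on the plus strand. Ifi207 (chr1:173723427-173741747), Ifi204 (chr1:173747293-173766943), Mndal (chr1:173849126-173942491), Ifi211 (chr1:173896345-173913046) and Ifi203 (chr1:173920407-173942672) are on the minus strand. All 7 are annotated as protein-coding. Because the genes arose by duplication, stretches of their transcripts are the same, and reads from such a stretch cannot be assigned to 1 gene. Of all 75-base windows in the annotated transcripts, 63.6% of those of Ifi211 were also found in another gene, 40.6% in Ifi205 and 23.0% in Ifi204. The share was 23.1% for Ifi209, with Ifi214 alone, 13.2% for Ifi204, 11.1% for Mndal, 5.71% for Ifi203 and 2.8% for Ifi207. For Aim2 it was 0 of 3477 windows. The exons of Mndal and Ifi203 share 37 bases on the same strand. Counts of Ifi211 are therefore the least certain of the 7, and those of Aim2 shared no such window.

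Promoters are shown because the members moved together in part and because Aim2 departed from the others. RefSeq sequences of GRCm38.p6, from 250 bases before to 50 bases after a start, were found for 6 of the 7 members. The ISRE core GAAANNGAAA, a pair of GAAA letters 2 bases apart and the element of interferon-stimulated genes bound by a complex that contains Irf9, was searched on both strands. It was found in the promoters of 4 members, Ifi203, Ifi207, Ifi211 and Mndal, and in 3.44% of 32851 promoters of the same length. Each has a match that begins 35 to 41 bases before a start, on the strand of the gene. Ifi203 and Mndal each have 2 entries, of which the one with this match is shown, and the other entry of Mndal has a match on the opposite strand. The 60 bases around the match, with the motif in capitals, are identical at all 60 positions in Ifi203 and Mndal, and at 50 in Ifi207 and Ifi211.
Ifi203, chr1:173942493-173942552, minus strand: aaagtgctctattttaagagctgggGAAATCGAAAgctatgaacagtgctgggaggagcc
Mndal, chr1:173880189-173880248, minus strand: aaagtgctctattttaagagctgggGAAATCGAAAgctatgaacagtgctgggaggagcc
Ifi207, chr1:173741816-173741875, minus strand: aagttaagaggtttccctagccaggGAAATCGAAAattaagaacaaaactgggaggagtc
Ifi211, chr1:173913049-173913108, minus strand: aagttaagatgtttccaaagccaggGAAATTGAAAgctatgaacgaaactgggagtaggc
Ifi209 holds only the shorter letters AANNGAAA, 77 bases before its start, here in capitals. These letters also lie inside every ISRE core match, and 23.9% of all promoters hold them.
Ifi209, chr1:173630756-173630815, plus strand: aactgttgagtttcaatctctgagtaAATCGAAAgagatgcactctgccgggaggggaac
The RefSeq start of Aim2 lies well inside the gene bounds given above, as do the starts of Mndal, and the outer ends of these genes were not searched. The Aim2 promoter holds neither motif in these 300 bases, nor TTCNNNGAA, which was found in no member and in 8.3% of all promoters.
Aim2, chr1:173420354-173420653, plus strand: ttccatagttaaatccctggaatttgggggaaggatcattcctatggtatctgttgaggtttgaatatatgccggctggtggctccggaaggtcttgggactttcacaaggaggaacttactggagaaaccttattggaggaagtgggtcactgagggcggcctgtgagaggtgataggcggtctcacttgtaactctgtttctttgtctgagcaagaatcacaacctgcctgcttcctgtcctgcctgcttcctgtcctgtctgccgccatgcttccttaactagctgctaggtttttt
A match is only a match of letters, and its absence says nothing of the factor. The 300-base promoters of Ifi203 and Mndal were 90.7% identical in a global alignment and those of Ifi207 and Ifi211 85.9%. All other pairs of entries from different members, with Aim2 or without it, were 43.5% to 55% identical.

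In WT the family was carried by Ifi211. Per kilobase of exon, Ifi211 stood at 5.5 CPM per kb, Aim2 at 1.15 and Ifi204 at 1.05. The remaining 4 members were each below 0.05 CPM per kb. Ifi211 made up 70.6% of the summed level of the 7 genes. The sum was 7.79 ± 1.60 CPM per kb (SD, n = 3) in WT, against 10.1 ± 0.952 for E1, 15.3 ± 0.548 for E1 S1S2 and 77.8 ± 4.90 for 6KO1. In series 2, E2 had 5.94 ± 1.08, E1E2 13.1 ± 0.194, E1E2 G9Gl 101.0 ± 2.05 and 6KO2 29.6 ± 3.02. The sum in 6KO1 and in E1E2 G9Gl was thus many times that of WT, and in 6KO2 it lay between those and the other conditions. The make-up changed with it. Ifi204 was the largest share in 6KO1, at 38.4%. In E1E2 G9Gl, Ifi209 (29%) and Ifi204 (28.3%) were nearly equal, and in 6KO2 Ifi211 (37.6%) was again first, before Ifi204 (26.9%) and Aim2 (23.3%).

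**Figure D1:**
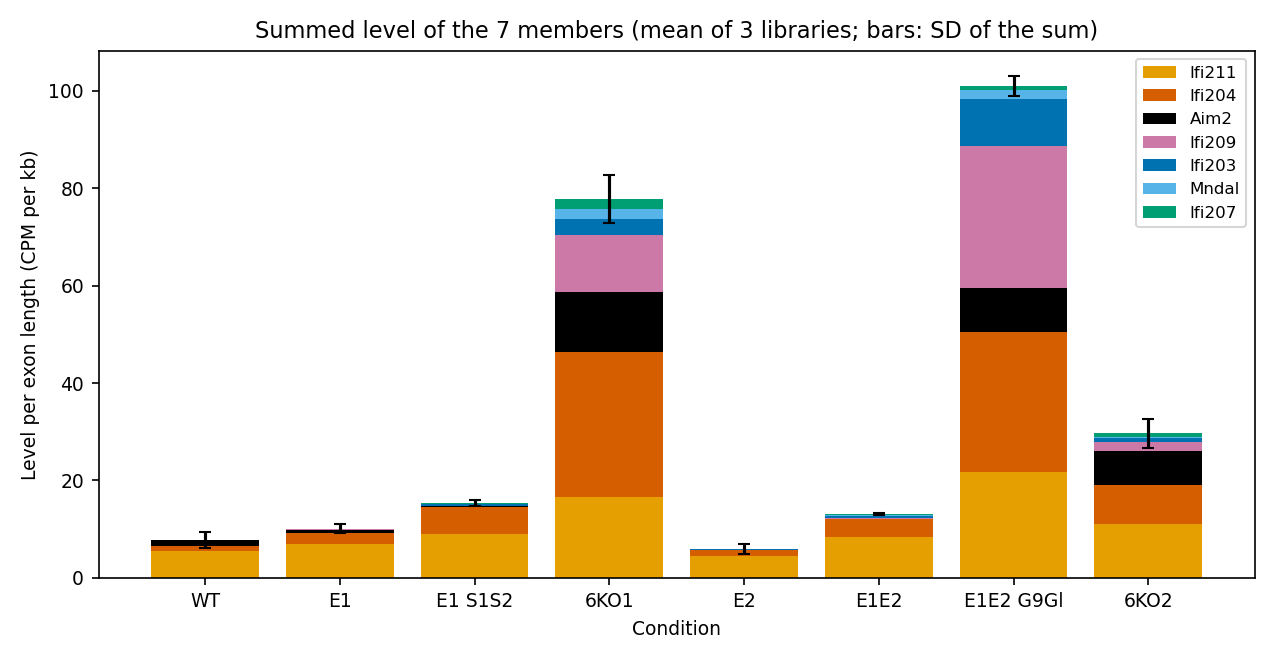
Summed level of the 7 members per kilobase of exon (CPM per kb, axis from 0) in the 8 conditions, each colour 1 gene, as means of 3 libraries. Error bars are the SD of the sum. The sum reached 77.8 in 6KO1 and 101.0 in E1E2 G9Gl, against 7.79 in WT.

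Each mutant was compared with WT to ask which members changed when the enzymes were removed. WT had no 4-OHT and every mutant but E2 was given it, so the drug and the loss of Eset1 cannot be told apart. A member was called when, in edgeR's quasi-likelihood test, its log2 fold change reached 1 in either direction with a Benjamini-Hochberg adjusted p no higher than 0.01 over the 18565 genes tested. All 7 members passed the filter on low counts. Ifi203, Ifi207, Ifi209 and Mndal were below its level of 0.396 CPM in every WT library and passed through mutant libraries alone, so the counts of members below are descriptions. In 6KO1, 7 of 7 members were higher than in WT, where 20.6% of all genes tested were higher. In E1E2 G9Gl it was also 7 of 7 (all genes, 16.8%), and in 6KO2 7 of 7 (all genes, 15.3%). In E1 S1S2, 4 of 7 were higher (all genes, 6.65%) and 1, Aim2, was lower (all genes, 5.11%). Among genes with a mean normalized count above 100, 2 were higher there. In E1E2, 5 of 7 were higher (all genes, 5.51%) and Aim2 was lower (all genes, 3.22%). With only the libraries of E1E2 and WT, or only genes with a mean normalized count above 100, 3 were higher, since not all members then passed the filter. In E1, Ifi204 alone was higher (all genes, 2.27%). In E2, 0 of 7 were higher by edgeR (all genes, 2.9%) and 0 by DESeq2, with 1 of them, Ifi203, above WT at an unadjusted p of 0.0459, and Aim2 was lower (all genes, 3.21%). The median log2 fold change of all genes was between -0.01 and 0.06 in these comparisons. The cultures were measured in bulk, so more cells with a transcript and more transcript per cell cannot be told apart.

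**Figure D2:**
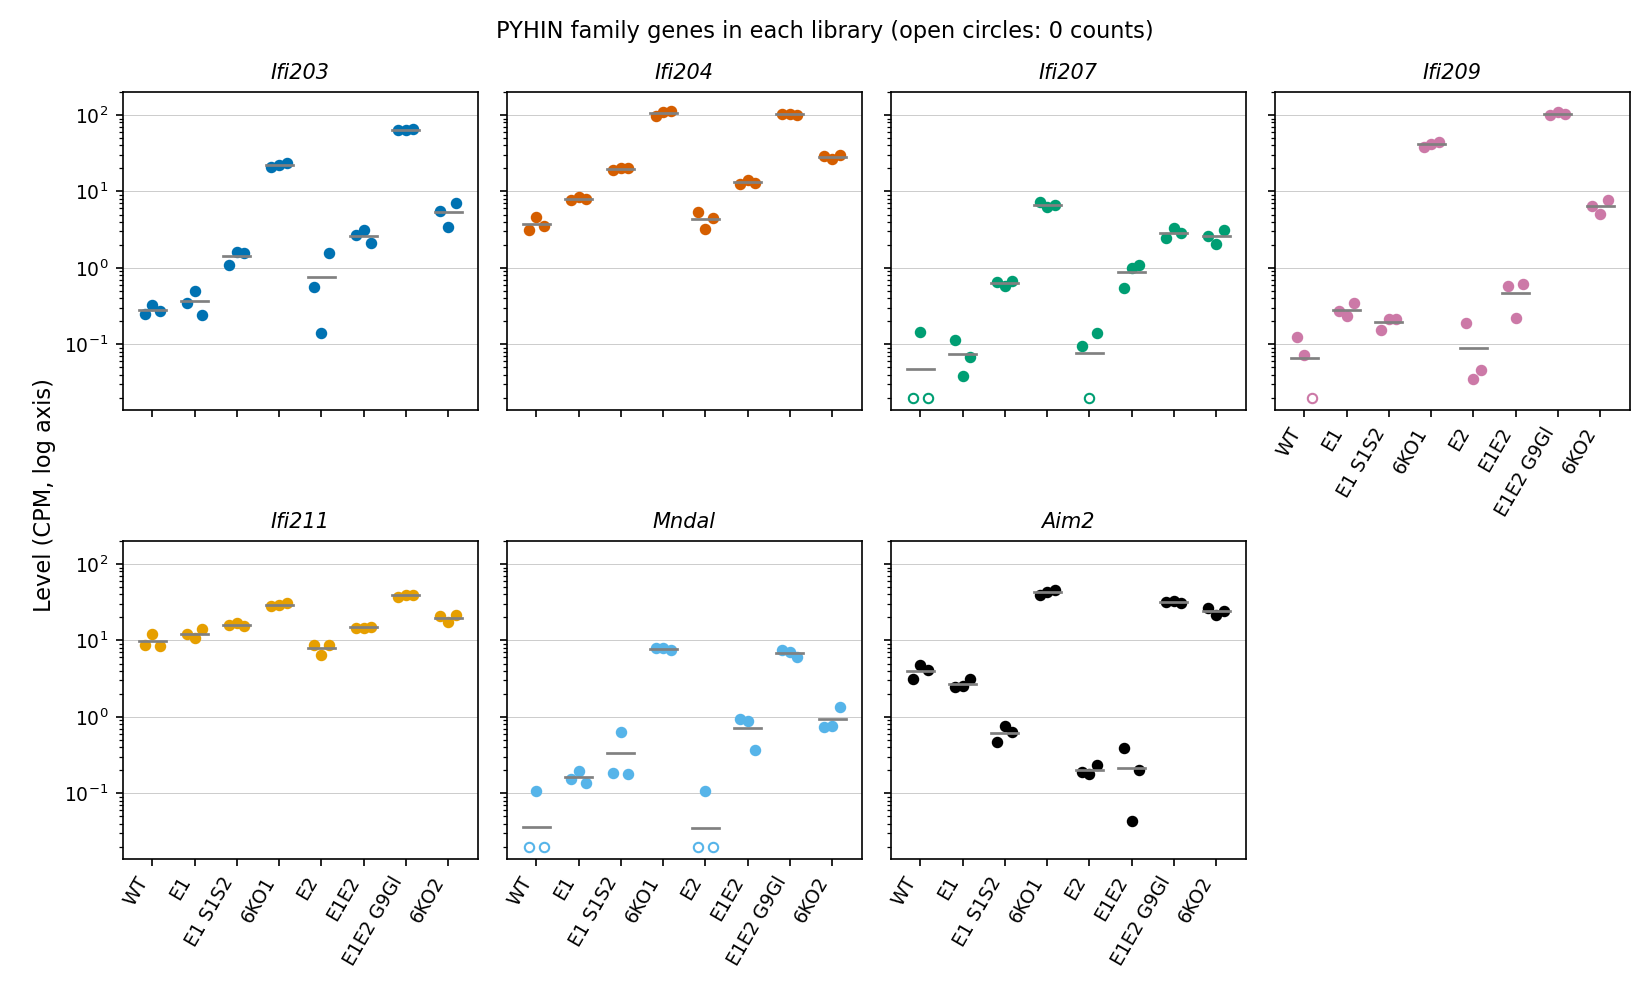
Level of each member (CPM, log axis) in each of the 24 libraries, 3 points per condition, with the mean of 3 as a grey line. Open circles at the lower edge are libraries with 0 counts. The level of 6 members other than Aim2 was highest in 6KO1 and E1E2 G9Gl and lowest in WT or E2, while Aim2 was lowest in E2 and E1E2.

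Ifi204 rose in steps, and its libraries separated most conditions. It stood at 3.12, 4.62 and 3.53 CPM in the WT libraries, at 7.64, 8.35 and 8.06 in E1 and at 19.3, 20.3 and 20.1 in E1 S1S2. In 6KO1 it reached 97, 109 and 113 CPM. These 4 conditions of series 1 did not overlap. In series 2, the E2 libraries had 5.45, 3.26 and 4.51 CPM, those of E1E2 12.7, 14.1 and 13.1, those of E1E2 G9Gl 104, 102 and 99.1 and those of 6KO2 28.7, 26.6 and 29.8. E2 overlapped WT, and E1E2 G9Gl overlapped 6KO1. In order of mean level the conditions ran 6KO1, E1E2 G9Gl, 6KO2, E1 S1S2, E1E2, E1, E2 and WT, and only the first pair and the last pair overlapped. Against WT the log2 fold change of Ifi204 was 4.81 (SE 0.12, adjusted p = 1.01e-19) in 6KO1, 4.75 (SE 0.12) in E1E2 G9Gl, 2.91 (SE 0.12) in 6KO2, 2.39 (SE 0.12) in E1 S1S2 and 1.81 (SE 0.13) in E1E2. In E1 it was 1.08 (SE 0.13, adjusted p = 1.49e-06), close to the fold minimum, and without WT replicate 1 it fell to 0.97 and was no longer called.

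Ifi211, the member with the highest level in WT, moved least. It was at 8.71, 12.2 and 8.56 CPM in WT, 28.3, 28.8 and 31.4 in 6KO1 and 37.3, 39.8 and 39.8 in E1E2 G9Gl, with no overlap between these 3 conditions. In 6KO2 it was at 20.7, 17.6 and 21.3 CPM and in E1 S1S2 at 15.9, 16.8 and 15.7. E1E2 (14.7, 14.7 and 15.2 CPM) lay above WT in all libraries, whereas E1 (12, 10.9 and 14) and E2 (8.74, 6.55 and 8.68) overlapped it. The log2 fold change was 1.98 (SE 0.12, adjusted p = 6.37e-13) in E1E2 G9Gl and 1.58 (SE 0.12) in 6KO1. In 6KO2 it was 1.01 (SE 0.12, adjusted p = 1.41e-07), at the edge of the call, and it fell below 1 in 4 of 6 fits that left out a library, with 0.93 and 0.92 without WT replicates 1 and 3 and 0.98 and 0.96 without 6KO2 replicates 1 and 3. In E1 S1S2 (0.71, adjusted p = 2.83e-05) and E1E2 (0.59, adjusted p = 0.000392) it differed from WT by less than the fold minimum.

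Ifi203 was near the limit of detection in WT and was called higher in 5 of the 7 mutants. Its libraries held 6, 9 and 7 counts in WT (0.253, 0.325 and 0.278 CPM) and 9, 13 and 7 in E1 (0.347, 0.507 and 0.243 CPM). They stood at 1.08, 1.61 and 1.56 CPM in E1 S1S2 and 21, 22.3 and 23.7 in 6KO1. WT and E1 overlapped, and the other conditions of series 1 lay apart. In series 2, the E2 libraries had 0.564, 0.142 and 1.55 CPM of Ifi203, those of E1E2 2.69, 3.11 and 2.12, those of E1E2 G9Gl 64.1, 64 and 64.9 and those of 6KO2 5.64, 3.43 and 7.16. E1E2 G9Gl was above every other library, and the spread within E2 was wide, with replicate 2 lowest. The log2 fold change against WT was 7.79 (SE 0.33, adjusted p = 1.16e-15) in E1E2 G9Gl, 6.26 (SE 0.35) in 6KO1, 4.22 (SE 0.41) in 6KO2, 3.18 (SE 0.46) in E1E2 and 2.28 (SE 0.50) in E1 S1S2. In E2 it was 1.27 (SE 0.60, adjusted p = 0.102) and was not called, and without E2 replicate 2 it was 1.86 with an adjusted p of 0.00646 and was called.

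Ifi209 had the widest range of the 7 members. The WT libraries held 3, 2 and 0 counts, those of E2 4, 1 and 1 and those of E1 7, 6 and 10. In E1 S1S2 they held 5, 6 and 6 and in E1E2 15, 5 and 15. These 5 conditions were all below 1 CPM. In 6KO1 Ifi209 stood at 38.2, 41.6 and 44.7 CPM, in E1E2 G9Gl at 99.2, 108 and 104 and in 6KO2 at 6.54, 5.1 and 7.64, and these 3 conditions overlapped neither each other nor the rest. With 5 counts in all of WT, a ratio is given with its 95% exact interval, which covers counting error alone. The level in E1E2 G9Gl was 1590.0 (95% interval 681 to 4900.0) times that of WT, in 6KO1 635 (95% interval 272 to 1960.0) times and in 6KO2 98.8 (95% interval 42 to 306) times. The fitted log2 fold changes were 10.53 (SE 0.25, adjusted p = 1.9e-20), 9.21 (SE 0.26) and 6.52 (SE 0.33). In E1E2 the value was 2.79 (SE 0.58, adjusted p = 0.000462) and was called. In E1 it was 2.05 (SE 0.65, adjusted p = 0.0257) and in E1 S1S2 1.49 (SE 0.70, adjusted p = 0.0768), and neither was called.

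Mndal, whose name comes from its likeness to the human gene MNDA, was hardly detected in WT and E2. The WT libraries held 0, 3 and 0 counts and those of E2 likewise 0, 3 and 0. E1 held 4, 5 and 4, E1 S1S2 6, 18 and 5, E1E2 24, 20 and 9 and 6KO2 18, 17 and 31. In 6KO1 they rose to 228, 231 and 196 and in E1E2 G9Gl to 177, 154 and 119. The last 2 conditions stood above all others, at 7.81 ± 0.208 and 6.89 ± 0.738 CPM (SD, n = 3). The level in 6KO1 was 68.1 to 972 times that of WT (95% interval, counting error alone), in E1E2 G9Gl 177 (95% interval 60.3 to 863) times and in 6KO2 24.3 (95% interval 7.95 to 121) times. The adjusted p was 1.82e-12 for 6KO1, 4.92e-12 for E1E2 G9Gl, 8.33e-06 for 6KO2 and 0.000101 for E1E2. In E1 S1S2, where 18 of 29 counts came from replicate 2, the log2 fold change was 2.92 (SE 0.86, adjusted p = 0.0063). It lost its call without that library (2.09, adjusted p = 0.0682), without WT replicate 1 (2.44, adjusted p = 0.0255) and without WT replicate 3 (2.41, adjusted p = 0.0297).

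Ifi207 followed Mndal at low counts but differed in series 2. Its WT libraries held 0, 4 and 0 counts, those of E1 3, 1 and 2 and those of E2 2, 0 and 3. It was at 0.649, 0.573 and 0.675 CPM in E1 S1S2, 0.545, 1.01 and 1.1 in E1E2 and 7.22, 6.26 and 6.61 in 6KO1. Here 6KO1 was above every other library. E1E2 G9Gl (2.47, 3.29 and 2.87 CPM) and 6KO2 (2.66, 2.03 and 3.1 CPM) overlapped, unlike those of the 6 other members. The level in 6KO1 was 128 (95% interval 49.9 to 473) times that of WT, counting error alone, in E1E2 G9Gl 55 (95% interval 21.1 to 204) times and in 6KO2 49.9 (95% interval 19.2 to 185) times. The fitted log2 fold change was 6.88 (SE 0.40, adjusted p = 3.79e-13) in 6KO1, 3.95 (SE 0.58) in E1E2 and 3.48 (SE 0.61) in E1 S1S2. For both Ifi207 and Mndal, all WT counts were in replicate 2, and without it WT was at 0 and a fitted fold change had no meaning.

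Aim2 departed from the rest of the family. In WT it was at 3.16, 4.8 and 4.12 CPM and in E1 at 2.47, 2.54 and 3.13. In E1 S1S2 it was down to 0.464, 0.751 and 0.64 CPM, in E2 to 0.188, 0.177 and 0.235 and in E1E2 to 0.389, 0.0437 and 0.204. All libraries of these 3 mutants lay below all WT libraries. In 6KO1 (39.8, 43.4 and 45.5 CPM), E1E2 G9Gl (31.7, 32.4 and 30.6 CPM) and 6KO2 (26.9, 21.3 and 24.3 CPM) it stood far above WT, and these 3 conditions did not overlap. Against WT the log2 fold change of Aim2 was -4.32 (SE 0.29, adjusted p = 5.93e-11) in E2, -4.18 (SE 0.28, adjusted p = 4.35e-11) in E1E2 and -2.72 (SE 0.22, adjusted p = 4.35e-10) in E1 S1S2. In counts, 14 over the 3 libraries of E2 and 16 over those of E1E2 stood against 312 in WT. Aim2 rose by 3.40 (SE 0.14, adjusted p = 7.13e-16) in 6KO1, 2.96 (SE 0.14) in E1E2 G9Gl and 2.58 (SE 0.14) in 6KO2. In E1 the value was -0.57 (SE 0.17, adjusted p = 0.0181), which was not called. These calls of Aim2 held without each library in turn. In E1E2 the value ranged from -4.94 to -3.74 over these fits.

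**Figure D3:**
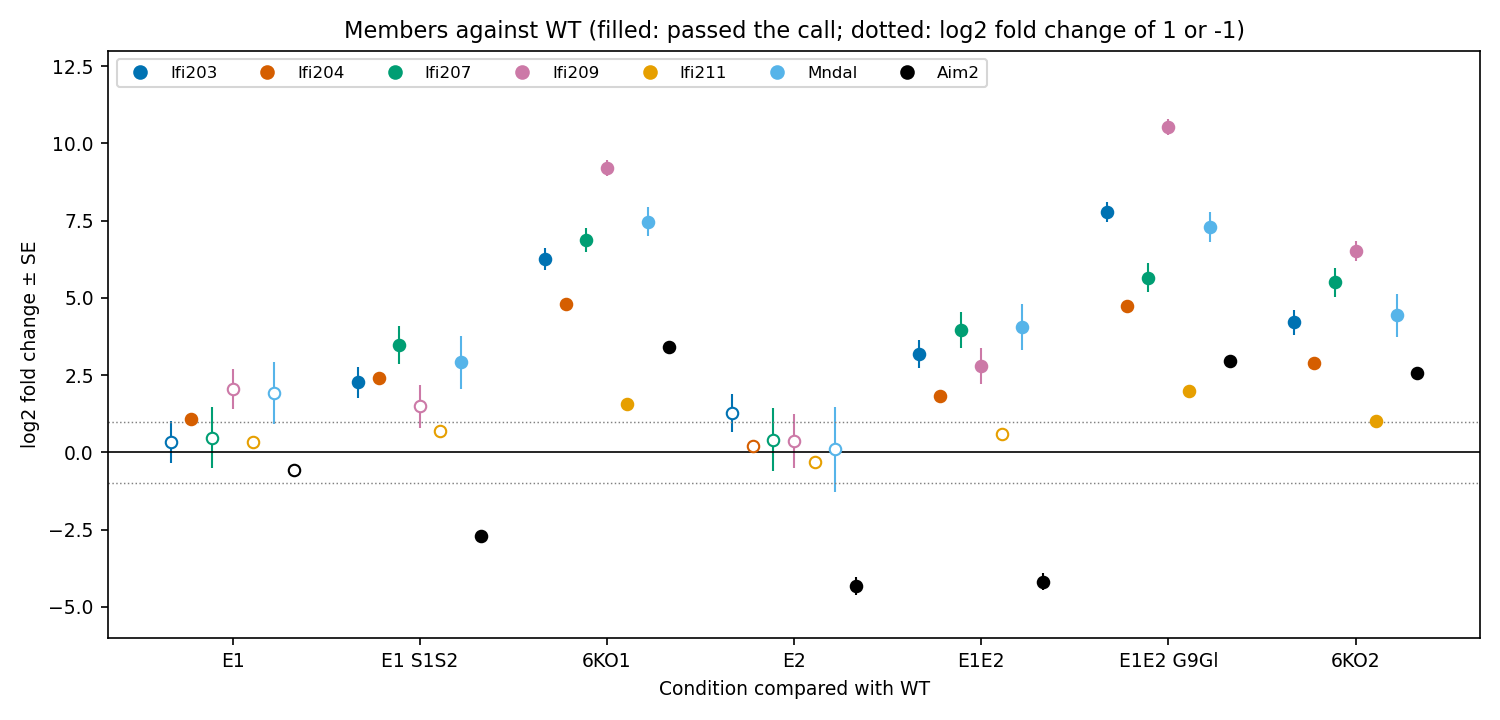
Log2 fold change against WT (points, with SE as bars) of the 7 members in each mutant condition. Filled points passed the call, and dotted lines mark a log2 fold change of 1 and -1. All 7 members were called higher in 6KO1, E1E2 G9Gl and 6KO2, and Aim2 was called lower in E1 S1S2, E2 and E1E2.

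Deletion of Eset1 by 4-OHT was the step that could be followed in 2 clones, from WT to E1 and from E2 to E1E2. In the Eset2-mutant clone 5 of 7 members rose with 4-OHT, where 2.32% of all genes tested rose. Mndal rose by 3.95 (SE 0.75, adjusted p = 0.000458), Ifi207 by 3.54 (SE 0.56, adjusted p = 6.45e-05), Ifi209 by 2.43 (SE 0.57, adjusted p = 0.00323), Ifi203 by 1.90 (SE 0.39, adjusted p = 0.000963) and Ifi204 by 1.61 (SE 0.13, adjusted p = 4.0e-09). All 3 counts of Mndal in E2 were in replicate 2, without which E2 is at 0 and no fold change can be given. Ifi203 ranged from 1.31 without E2 replicate 2 to 3.0 without E2 replicate 3. The call of Ifi209 was lost in 4 of 6 fits that left out a library, at 1.98 (adjusted p = 0.0359) without E2 replicate 2, 2.19 (0.0167) without E2 replicate 3, 2.25 (0.0198) without E1E2 replicate 1 and 2.21 (0.0204) without E1E2 replicate 3. When only the 6 libraries compared were fitted, 2 members were called higher, Ifi204 and Ifi207. Ifi203 lost its call there (1.88, adjusted p = 0.0257), and Ifi209 and Mndal did not pass the filter. Ifi211 was 0.90 (SE 0.13, adjusted p = 1.4e-05), under the fold minimum, and Aim2, at 14 and 16 counts, was 0.14 (SE 0.54, adjusted p = 0.92). In the parental clone Ifi204 was the 1 member called. The difference between the 4-OHT responses of the clones was tested as an interaction, and 0 of 7 members were called by edgeR, by DESeq2 or with the adjusted p set to 0.05, although 3 had an unadjusted p under 0.05: Ifi211 (0.58, SE 0.18, adjusted p = 0.0269), Ifi204 (0.53, SE 0.19, adjusted p = 0.0613) and Ifi207 (3.06, SE 1.34, adjusted p = 0.142). Of all genes, 2.01% had a higher and 1.41% a lower response in the Eset2-mutant clone. Compared directly after 4-OHT, E1E2 had more Ifi207 (3.47), Ifi203 (2.85) and Mndal (2.13) than E1, 3 of 7 where 3.69% of all genes were higher. Among genes with a mean normalized count above 100, 1 member was higher. E1E2 had less Aim2 (-3.61, and -4.37 to -3.17 without 1 library), where 2.1% of all genes were lower. Mndal kept that call when E1E2 replicate 3 was left out, and lost it, at 1.89 to 2.27 with an adjusted p of 0.0104 to 0.0277, without any 1 of the other 5 libraries (E1 replicates 1, 2 and 3, E1E2 replicates 1 and 2).

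Loss of G9a and Glp was added in series 2, from E1E2 to E1E2 G9Gl, and together with loss of Eset2 in series 1, from E1 S1S2 to 6KO1. From E1E2 to E1E2 G9Gl 7 of 7 members were higher, where 14.8% of all genes were. Ifi209 rose by 7.75 (SE 0.19, adjusted p = 7.63e-20) and Aim2 by 7.14 (SE 0.22, adjusted p = 5.87e-18). The Aim2 value rested on 16 counts in E1E2 and ranged from 6.70 to 7.90 when 1 library was left out. Ifi203 rose by 4.61 (SE 0.24), Mndal by 3.24 (SE 0.30), Ifi204 by 2.94 (SE 0.11), Ifi207 by 1.70 (SE 0.28) and Ifi211 by 1.39 (SE 0.11). From E1 S1S2 to 6KO1 6 of 7 were higher, where 16.3% of all genes were. Ifi209 (7.72, SE 0.22) and Aim2 (6.12, SE 0.18) were again first, before Mndal (4.55), Ifi203 (3.98), Ifi207 (3.39) and Ifi204 (2.42). Ifi211 was 0.87 (SE 0.11, adjusted p = 4.8e-07), under the fold minimum. Each of these calls held without each library in turn.

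Over the step that added loss of Suv39h1 and Suv39h2, Ifi203 and Ifi204 were called in opposite directions in the 2 series. From E1 to E1 S1S2, 3 of 7 members were higher, where 4.31% of all genes were: Ifi207 (3.0, SE 0.56, adjusted p = 0.000114), Ifi203 (1.95, SE 0.47, adjusted p = 0.00168) and Ifi204 (1.31, SE 0.11, adjusted p = 1.76e-09). Aim2 was lower by edgeR (-2.14, SE 0.23, adjusted p = 8.03e-08), where 3.74% of all genes were. The call of Ifi203 was lost without E1 replicate 3 (1.71, adjusted p = 0.0131). From E1E2 G9Gl to 6KO2, 4 of 7 were lower, where 9.12% of all genes were: Ifi209 (-4.01, SE 0.14, adjusted p = 8.82e-17), Ifi203 (-3.57, SE 0.22, adjusted p = 4.22e-12), Mndal (-2.85, SE 0.29, adjusted p = 1.54e-08) and Ifi204 (-1.84, SE 0.10, adjusted p = 3.07e-13). By edgeR and by DESeq2 0 of 7 were higher, where 7.19% of all genes were, and all 7 fitted values were below 0. Ifi211 was -0.97 (SE 0.11), under the fold minimum in the full fit, and was called at -1.0 without E1E2 G9Gl replicate 1 and at -1.02 without 6KO2 replicate 3. Aim2 (-0.39, SE 0.12) and Ifi207 (-0.14, SE 0.23) were not called. The difference between the 2 steps was tested as well, a test added after the values were seen. It was lower in series 2 for 6 members (all genes, 8.76%) and higher for Aim2 (all genes, 7.71%). Ifi203 had the widest difference, -5.51 (SE 0.50, adjusted p = 3.78e-09), and Aim2 had 1.76 (SE 0.27, adjusted p = 7.54e-06). Both 6KO lines lacked all 6 enzymes. 6KO1 had more than 6KO2 of 5 of 7 members, where 9.77% of all genes were higher: Mndal (3.03), Ifi209 (2.69), Ifi203 (2.04), Ifi204 (1.91) and Ifi207 (1.36). Among genes with a mean normalized count above 100, 3 members were higher. Aim2 (0.83) and Ifi211 (0.57) were higher by less than the fold minimum.

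**Figure D4:**
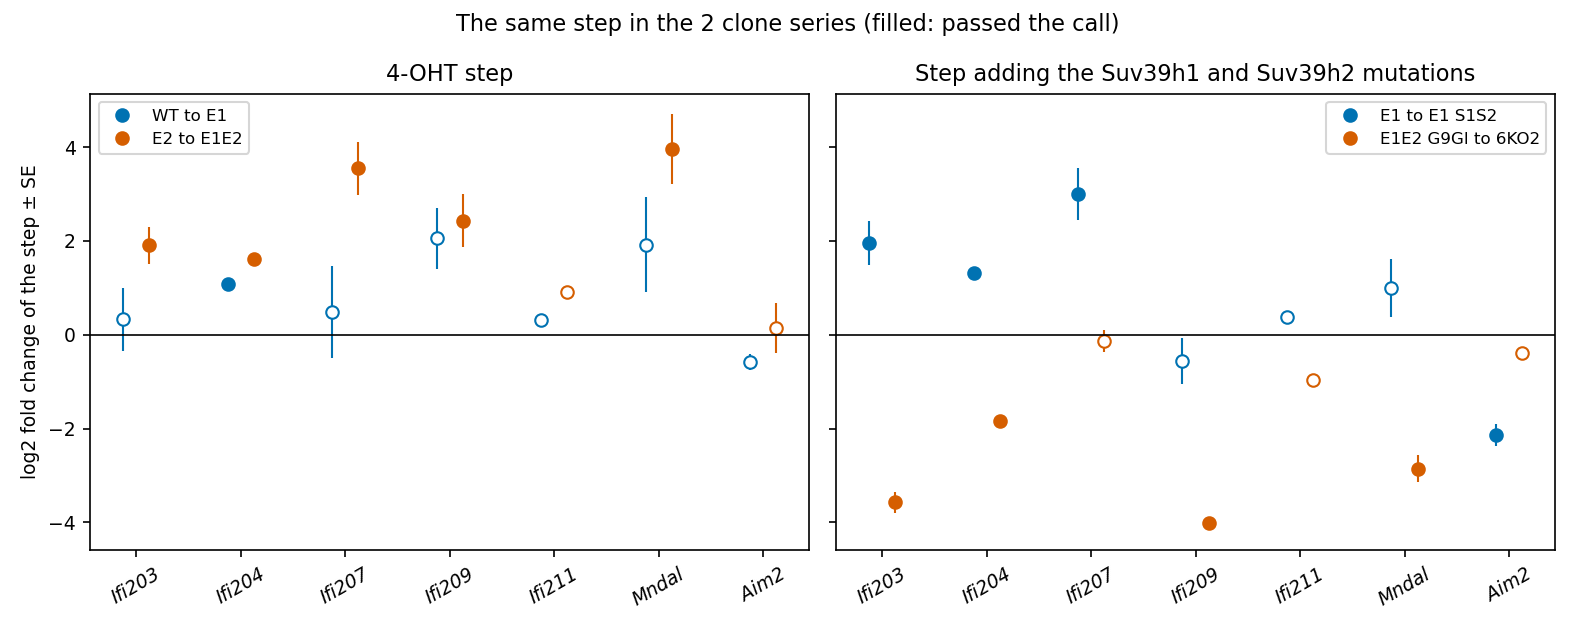
Log2 fold change (points, with SE as bars) of each member over the 4-OHT step (left) and over the step adding loss of Suv39h1 and Suv39h2 (right), in series 1 (blue) and series 2 (orange). Filled points passed the call. Over the second step Ifi203 and Ifi204 rose in series 1 and fell in series 2.

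The 7 other genes of the cluster were followed by the same fit. Ifi202b held at most 2 counts in any library and was not tested. Of the 6 tested, Ifi205, Ifi206, Ifi208, Ifi213, Ifi214 and Ifi203-ps, all 6 were higher than WT in 6KO1 (all genes, 20.6%), E1E2 G9Gl (16.8%) and 6KO2 (15.3%). In E1E2 2 were higher, Ifi205 and Ifi213 (all genes, 5.51%), and in E1 S1S2 1, Ifi205 (6.65%). All 6 were below the level of the filter in every WT library and passed through mutant libraries, and all but Ifi205 had at most 1 count over the 3 WT libraries. Ifi205, at 17 counts in WT, stood at 0.216 ± 0.100 CPM (SD, n = 3) there, and 6KO1 had 4.59 ± 0.657, E1E2 G9Gl 9.72 ± 1.65 and 6KO2 3.19 ± 1.07. Ifi213 and Ifi214 were mostly found in E1E2 G9Gl, at 5.13 ± 0.188 and 4.76 ± 0.446 CPM, against 0.767 ± 0.102 and 0.239 ± 0.00597 in 6KO1. Ifi214 held 308 counts over the libraries of E1E2 G9Gl, against 20 for 6KO1 and 9 for 6KO2, and it shares with Ifi209 the windows described above. An ISRE core match was found in 5 of the 6 that have a promoter entry, Ifi205, Ifi206, Ifi208, Ifi213 and Ifi214, and not in Ifi202b.

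Inflammasome genes, among them partners of Aim2, sensors of other inflammasomes and cytokines, were taken as a list of 15, of which 8 passed the filter. Of these, 5 were higher in 6KO1 (all genes, 20.6%), 5 in E1E2 G9Gl (all genes, 16.8%) and 5 in 6KO2 (all genes, 15.3%). In E1E2 2 were higher (all genes, 5.51%), in E1 S1S2 1 (all genes, 6.65%) and in E2 1 (all genes, 2.9%). Casp1, Il1a and the sensors Naip2 and Naip5 had a mean in WT below the level of the filter and were among the calls in 6KO1, so these counts are descriptions, as for the members. Casp1 and Il1a were at 0 in every WT library, so no median is given for the list. The cytokine Il18 was called lower in E1, E1 S1S2, 6KO1 and E1E2 and higher in E1E2 G9Gl. Casp8, a protease of cell death (-0.20 in 6KO1), and Gsdmd, the pore-forming substrate of inflammatory caspases (0.17), were the highest in WT and were not called against WT in any mutant. Casp4, an inflammatory caspase, was higher in 6KO1 (2.92), E1E2 G9Gl (2.15) and 6KO2 (2.03), as Aim2 was. In E1 S1S2 it was lower (-1.24), as Aim2 was, and in E1E2 it was higher (1.54), where Aim2 was lower. The adaptor Pycard did not pass the filter. Of 16 genes for sensing and clearing of cytosolic DNA, all tested, 2 were higher in 6KO1 (all genes, 20.6%), 1 in E1E2 G9Gl (all genes, 16.8%) and 2 in 6KO2 (all genes, 15.3%). There were 3 in E1E2 (all genes, 5.51%), 2 in E1 S1S2 (all genes, 6.65%) and 1 in E2 (all genes, 2.9%). Their median log2 fold change was 0.29 for 6KO1, 0.02 for E1E2 G9Gl and 0.04 for 6KO2. Zbp1 had a mean in WT just below the level of the filter (0.3895 CPM), so these counts and medians are descriptions too. It was among the calls in 6KO1, 6KO2, E1E2 and E1 S1S2 and was the call in E2. The highest in WT, the nuclease component Mre11a and the dNTP hydrolase Samhd1, had -0.79 and 0.32 in 6KO1 and were not called there.

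Interferon genes outside the family were taken as 2 lists. Of 36 interferon-induced genes, all tested, 35 were higher than WT in 6KO1 (all genes, 20.6%), 32 in E1E2 G9Gl (16.8%), 31 in E1E2 (5.51%), 29 in E1 S1S2 (6.65%), 25 in 6KO2 (15.3%), 13 in E2 (2.9%) and 10 in E1 (2.27%). Their median log2 fold change was 3.89 in 6KO1, 3.45 in E1E2 G9Gl, 2.63 in E1E2, 2.16 in E1 S1S2 and 2.03 in 6KO2. Oas1a, Oas2, Oas3, Mx1, Ifi27l2a, Ifi44 and Psmb8 had a mean in WT below the level of the filter and passed through mutant libraries, so these counts and medians are descriptions too. Those with the highest level in WT were Ifit2, Irgm1 and Bst2. Bst2, a membrane tether of viruses, rose by 2.33 in 6KO1 and 2.30 in E1E2 G9Gl, and Ifit2, which binds viral RNA, rose by 1.45 in 6KO1. Irgm1, an immunity-related GTPase, rose by 1.11 in 6KO1. In E1E2 G9Gl, Ifit2 (0.97) and Irgm1 (0.72) were not called. Bst2 (0.56), Ifit2 (0.57) and Irgm1 (0.08) were not called in 6KO2. Of 24 ligands, receptors and signalling genes, 17 were tested, and 6 were higher in 6KO1 (all genes, 20.6%), 7 in E1E2 G9Gl (16.8%), 6 in E1E2 (5.51%), 5 in E1 S1S2 (6.65%), 5 in 6KO2 (15.3%), 2 in E2 (2.9%) and 1, Irf7, in E1 (2.27%). No interferon ligand of this list (Ifnb1, Ifna1, Ifna2, Ifna4, Ifnl2, Ifnl3 and Ifng) passed the filter, so the counts cover receptors and signalling genes alone. Usp18 and Ifnlr1 of this list had a mean in WT below the level of the filter, so these counts are descriptions too. Ifnlr1 was at 0 in WT and was among the calls in E1E2 G9Gl. The kinase Jak1, highest in WT, was 0.28 in 6KO1 and was not called. Irf7 was at 0.694 ± 0.0568 CPM (SD, n = 3) in WT, against 2.69 ± 0.372 for E1, 11.8 ± 1.35 for E1 S1S2 and 93.1 ± 1.21 for 6KO1. In series 2, E2 had 4.35 ± 2.49, E1E2 16.5 ± 1.97, E1E2 G9Gl 32.9 ± 0.385 and 6KO2 10.6 ± 3.53 CPM. It was thus called higher than WT in all 7 mutants, with log2 fold changes of 1.96 to 7.06. Irf9, the DNA-binding subunit of the complex that reads the ISRE, was called in 6KO1 (2.71), E1E2 G9Gl (2.19), E1E2 (1.62), E1 S1S2 (1.18) and 6KO2 (1.08).

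**Figure D5:**
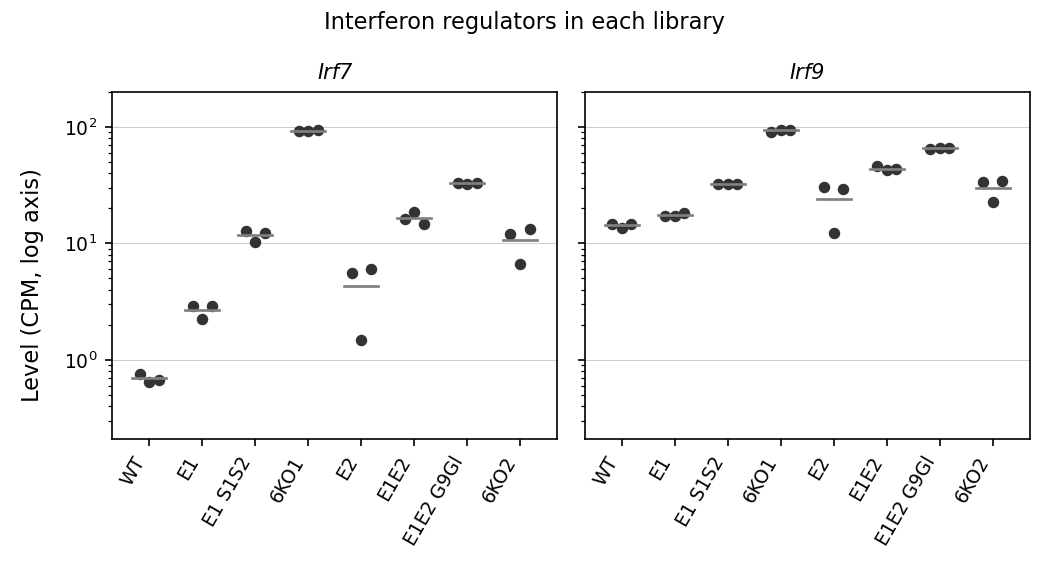
Level of the interferon regulators Irf7 and Irf9 (CPM, log axis) in each of the 24 libraries, 3 points per condition, with the mean of 3 as a grey line. Irf7 was lowest in WT and highest in 6KO1, and replicate 2 of E2 and of 6KO2 lay below the other libraries of their conditions.

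The pattern of the members over the 24 libraries was compared with that of 13100 tested genes outside the family with a mean normalized count of at least 50. Likeness was the Pearson correlation of log2 CPM with the mean of the standardised values of the 7 members. Ifi27 (0.99), Nlrc5 (0.99), Nrip3 (0.99), Trim30a (0.981) and Sp100 (0.977) were most alike among these. Nlrc5 is the activator of MHC class I genes, and Ifi27, Trim30a and Sp100 are known as interferon-induced. Ifi27 was at 5.0 ± 0.857 CPM (SD, n = 3) in WT, against 229 ± 19.5 for 6KO1, 227 ± 2.68 for E1E2 G9Gl and 34.5 ± 4.04 for 6KO2. Within the family, Ifi204 was the closest partner of Ifi211 (0.971), Mndal (0.956), Ifi203 (0.944) and Ifi207 (0.939). Ifi203 was that of Ifi209 (0.94), and Aim2 was closest to Ifi209 at 0.819. These values describe 24 libraries that share 8 conditions, and Ifi204 and Ifi211 share part of their sequence.

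Markers of other cell types were read in the same libraries. Of 14 leukocyte markers, 7 were at 0 in all WT libraries, among them the defining genes Ptprc, Itgam, Lyz2 and Tyrobp. The summed level of the 14 was 6.67 to 7.54 CPM in WT, 25.8 to 28.5 in 6KO1, 33.7 to 36.0 in E1E2 G9Gl and 9.71 to 11.4 in 6KO2. In the other conditions it was between 5.63 and 10.3 CPM. It was thus highest in the 2 conditions with most of the family. In E1E2 G9Gl Itgam (20.1 CPM) and Lyz2 (6.01 CPM) made up most of it, and in 6KO1 Cd68 (19.4 CPM). Ptprc, the pan-leukocyte marker, was at 0.619, 1.89 and 0.741 CPM in 6KO1, E1E2 G9Gl and 6KO2. Adgre1, a macrophage marker, was at 0 in all 24 libraries, and Tyrobp and Laptm5 were at 0 in every library of E1E2 G9Gl and 6KO2. The 4 endothelial markers summed to 0.469 to 0.589 CPM in WT and to 4.79 to 5.52 in 6KO1, 2.66 to 3.47 in E1E2 G9Gl and 3.96 to 5.46 in 6KO2. The 4 epithelial markers summed to 1.22 to 1.98 CPM in WT and to 3.84 to 17.6 in the mutants. Most of that sum was Krt8 (0.985 CPM in WT and 16.7 in 6KO1), while Epcam was called lower in 5 mutants (0.436 CPM in WT and 0.0578 in 6KO1), and Krt18 and Cdh1 did not pass the filter. The 10 fibroblast markers summed to 6092 to 7368 CPM in WT, 3228 to 3474 in 6KO1 and 8114 to 8599 in E1E2 G9Gl. The part of these markers in the levels of the family was not tested.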

How the data were processed

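Total RNA of 24 cultures of mouse embryonic fibroblasts was sequenced as stranded, paired-end libraries. The authors trimmed reads with cutadapt 1.8.1, aligned them to GRCm38 with STAR 2.5.2b and counted genes and repeats with TEtranscripts, and the deposited table holds raw counts. The annotation release and the strand setting of the counting are not given in the sources used here. The table held 47937 genes, 1445 repeat elements and 1 malformed entry (at most 0.00271% of a library), and only genes entered library sizes and tests. Reads shared by related genes are a limit of these counts.

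Genes were kept by the edgeR expression filter (18565 genes, minimum count 10), scaled by TMM and fitted over all 24 libraries with the quasi-likelihood test of edgeR 4.0.16 in R 4.3.3, with 1 mean per condition. For 14 comparisons and the interaction of 4-OHT with Eset2 genotype, a call needed a fold change of at least 2 and a Benjamini-Hochberg adjusted p of at most 0.01. The study gives the same limits without saying whether its p was adjusted. CPM used gene counts and the TMM-scaled library sizes, and CPM per kb the exon length. Alternatives were DESeq2 1.42.0, other scaling, filters and thresholds, the compared libraries alone, a replicate block and each library left out. On data simulated from gene means over all 24 libraries, with changes put into 6KO1 alone, edgeR found 199 of 200 changed genes. It called 0 others among 17527 genes in 6KO1 against WT. Every gene was given the same spread and no changed gene was near 0 in WT, so members near 0 in WT are not covered. The 7 members and all gene lists were chosen with earlier results of these data known. Genes of a list were named by level in WT, with Irf7 and Irf9, and further ones (Casp4, Casp1, Il1a, Il18, Naip2, Naip5, Itgam, Lyz2, Cd68, and those named for a level in WT below the filter) after their values were seen. Some items are not reported here. Promoters came from RefSeq on GRCm38.p6. Sequences were aligned with Biopython 1.88.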

Additional observations from a re-analysis of the deposited data

Results flagged for a closer look

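The effect of adding loss of Suv39h1 and Suv39h2 differed between the clone series in all 7 members, by a test of the difference that was chosen after the values were seen. The difference is the log2 fold change from E1E2 G9Gl to 6KO2 minus that from E1 to E1 S1S2, tested in edgeR over all genes, of which 7.71% had a higher and 8.76% a lower difference. It was -5.51 (SE 0.50) for Ifi203, the member that moved most, with steps of -3.57 in series 2 and 1.95 in series 1. It was -3.86 (SE 0.69) for Mndal, -3.45 (SE 0.58) for Ifi209, -3.15 (SE 0.15) for Ifi204, -3.15 (SE 0.61) for Ifi207 and -1.36 (SE 0.16) for Ifi211. Aim2 went the other way, at 1.76 (SE 0.27), with steps of -0.39 in series 2 and -2.14 in series 1. The adjusted p was 5.58e-14 for Ifi204, 3.78e-09 for Ifi203, 2.85e-07 for Ifi211, 7.54e-06 for Aim2, 3.18e-05 for Ifi209, 6.27e-05 for Mndal and 0.000161 for Ifi207. Since the test was picked on these same values, its adjusted p are descriptions. In series 1, E1 and E1 S1S2 held 23 and 17 counts of Ifi209 and 13 and 29 of Mndal, and neither step was called. Of the 36 interferon-induced genes, 20 were higher and 1 lower from E1 to E1 S1S2 (all genes, 4.31% and 3.74%). From E1E2 G9Gl to 6KO2, 0 were higher and 22 lower (all genes, 7.19% and 9.12%). Of the 6 other cluster genes tested, 1 was higher over the first of these steps and 6 were lower over the second. These counts are descriptions too. The 2 steps start from different genotypes and each line is 1 clone, so the genotype and the clone cannot be told apart.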

How the results depend on the processing

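Over 894 values of single members under other settings, 878 kept direction and call, 3 lost a call, 13 gained one and 0 reversed. Members that did not pass the filter of a setting gave no value there, so calls lost in that way are outside these numbers. Settings that changed only the fold minimum or the adjusted p kept the fitted values, which could not reverse. Counts of members moved by over 1.5 times as follows. Without the filter on low counts 2 members were higher in E1 and 1 in E2, and with an adjusted p of at most 0.05, 2 in E1. Among genes with a mean normalized count above 100, which leaves out low members, 2 were higher in E1 S1S2 and 3 in E1E2 against WT, 3 in E1E2 against E2, 1 in E1E2 against E1 and 3 in 6KO1 against 6KO2. With only the libraries compared, 3 were higher in E1E2 against WT and 2 against E2. Smaller moves among genes with a mean above 100 were from 7 to 5 members higher in 6KO1, E1E2 G9Gl and 6KO2 against WT and in E1E2 G9Gl against E1E2, from 6 to 4 in 6KO1 against E1 S1S2, from 3 to 2 in E1 S1S2 against E1, and from 4 to 3 lower in 6KO2 against E1E2 G9Gl. With only the libraries compared, E1 S1S2 against WT went from 4 to 3 and E1E2 against E1 from 3 to 2. With no fold minimum, 5 were higher in E1 S1S2 and 6 in E1E2 against WT, 6 in E1E2 against E2, 4 in E1E2 and 4 in E1 S1S2 against E1, 7 in 6KO1 against E1 S1S2 and 7 against 6KO2, and 6 were lower in 6KO2 against E1E2 G9Gl. Ifi211 in 6KO2 was 0.99 without the filter and with factors from genes and repeats, which leaves 6 members higher there. Over 672 values of single members without 1 library, 634 kept direction and call. The number of members higher ranged from 0 to 1 in E1, 0 to 1 in E2, 3 to 4 in E1 S1S2 and 6 to 7 in 6KO2 against WT, from 2 to 3 in E1 S1S2 and 2 to 3 in E1E2 against E1, and from 4 to 5 in E1E2 against E2. The number lower in 6KO2 against E1E2 G9Gl ranged from 4 to 5. Most reversals were among members with few counts. Aim2 ranged from -0.62 to 0.58 in E1E2 against E2 and from -0.0518 to 1.15 in the interaction. Ifi207 ranged from -0.0495 to 4.01 in E1 and -0.33 to 3.93 in E2 against WT, and from -0.46 to 3.8 in the interaction. In 6KO2 against E1E2 G9Gl, at 181 and 186 counts, Ifi207 was -0.14 and ranged from -0.29 to 0.0022. Ifi209 ranged from -0.63 to 1.07 in E2 against WT and from -0.34 to 1.36 in the interaction. Mndal ranged from -3.15 to 3.25 in E2 against WT and from -1.12 to 5.28 in the interaction. Replicate numbers were not used to pair the libraries. Deviations of same-numbered libraries correlated at a mean of -0.127 to 0.101 within the comparisons, with single values from -0.291 to 0.24. E2 and 6KO2, both with a low replicate 2 in Irf7, were not compared in this way. With a replicate block no count of members changed, and calls over all genes went from 5731 to 5696 in 6KO1 and from 790 to 771 in E1. The upper ends for Ifi207 in E1 and E2 and for Mndal in E2, and the lower ends of both in the interaction, come from leaving out WT replicate 2, which puts WT at 0. The lower end for Mndal in E2 and its upper end in the interaction come from leaving out E2 replicate 2, which puts E2 at 0. None of these carries a fold change. The few counts of Ifi207, Ifi209 and Mndal in WT limit how well their ratios are known. The cause of other changes was not tested.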
